A study of Mus musculus with 9 samples.

Results

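Iron handling was described through 10 genes of the 55906 in the deposited table, taken by symbol: Lcn2, Fth1, Ftl1, Tfrc, Slc40a1, Slc11a1, Slc11a2, Hmox1, Ireb2 and Aco1. Each symbol matched 1 Ensembl identifier. The rule names genes with a known role in iron metabolism and uses no measured value, but the list was drawn up with earlier results of these data known. RNA was sequenced from BV2, a mouse microglia line made by immortalization, which the labels give as wildtype. The LPS+Pilo group was cells stimulated with lipopolysaccharide (LPS), a bacterial cell wall component, together with a second treatment, written Pilo in the labels. The LPS group was cells given LPS without Pilo, and the Control group was cells given neither, with 3 libraries in each of the 3 groups. The design text gives the question as how Pilo modulates the inflammatory response of microglia. The sources used here do not give what Pilo stands for, its dose, the dose of LPS or the times of treatment. BV2 is a single cultured line and not microglia in brain tissue.

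As background, cells take up iron bound to transferrin through the transferrin receptor, move it out of endosomes through divalent metal transporters, store it in ferritin cages built of heavy and light chains, and release it through ferroportin. Heme oxygenase frees iron from heme, and a pair of iron regulatory proteins, made from Aco1 and Ireb2, bind a hairpin called the iron responsive element in the transcripts of ferritin, ferroportin and the transferrin receptor when iron is scarce. Macrophages and microglia are known to withhold iron during bacterial infection, in part by secreting lipocalin 2, which captures the siderophores with which bacteria collect iron.

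The iron responsive elements are shown because they are the sequence that several of these genes have in common, and because the position of the element separates the storage and export genes from the receptor. The search was for a C, any 5 bases and the loop CAGTGN, with the 5 bases on either side of the loop pairing (G-T pairs allowed), in untranslated regions of GENCODE M21 transcripts on build GRCm38. Capitals mark the bulged C and the loop, and each sequence is the sense strand of 30 bases, 5′ to 3′.
Fth1: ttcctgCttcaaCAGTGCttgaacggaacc
Ftl1: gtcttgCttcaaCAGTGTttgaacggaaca
Slc40a1: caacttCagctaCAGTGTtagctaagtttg
Tfrc site 1: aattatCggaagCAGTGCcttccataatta
Tfrc site 2: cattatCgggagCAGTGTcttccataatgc
Tfrc site 3: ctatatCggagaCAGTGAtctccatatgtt
Tfrc site 4: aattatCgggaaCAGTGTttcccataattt
Slc11a2: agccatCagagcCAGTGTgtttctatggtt

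The elements of Fth1 (chr19:9982732-9982761, plus strand), Ftl1 (chr7:45459778-45459807, minus strand) and Slc40a1 (chr1:45925464-45925493, minus strand) lie in the 5′ untranslated region. The 4 sites of Tfrc lie in its 3′ untranslated region on the plus strand, at chr16:32631219-32631248, chr16:32631598-32631627, chr16:32631663-32631692 and chr16:32631710-32631739. The Slc11a2 sequence (chr15:100395152-100395181, minus strand, 3′ untranslated region) paired at 4 of the 5 stem positions and so did not meet the rule. No full match was found in the untranslated regions of the genes Lcn2 (chr2:32384633-32388252, minus strand), Slc11a1 (chr1:74375195-74386062, plus strand), Hmox1 (chr8:75093621-75100589, plus strand), Ireb2 (chr9:54863789-54912530, plus strand) and Aco1 (chr4:40143081-40198338, plus strand). The coordinates of these genes are those of the whole gene, and the rest of each gene was not searched. Among protein-coding genes of the annotation, 31 of 21200 (0.146%) held a full match in a 5′ untranslated region and 144 of 21186 (0.68%) in a 3′ untranslated region. These matches are descriptions of sequence and say nothing of which protein was bound.

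Expression is given as TPM (each gene's share of the transcripts, scaled for gene length, so that levels can be compared between genes). The number of reads is not part of these values, so depth is unknown, and the spread between 3 libraries is the precision used; between 10726 and 11123 genes reached 1 TPM in a library. The labels give biological replicates but do not state separate cultures, so the p-values measure the spread between these libraries, which may be technical. The 12 microglia and macrophage markers summed to 2054 to 2126 TPM in LPS+Pilo, 2363 to 2467 TPM in LPS and 3054 to 3384 TPM in Control, with P2ry12 and Sall1 below 1 TPM in every library. Tyrobp, Cd68 and Trem2 made up most of these sums, and each had its highest mean in Control. The markers did not all move alike: Itgam averaged 30.3 TPM in LPS+Pilo, 35.4 TPM in LPS and 10.9 TPM in Control. Tmem119 averaged 3.00, 2.94 and 2.35 TPM in the same order. The 9 neutrophil markers each stayed below 1 TPM, 5 of 6 astrocyte markers did so, and 3 erythroid and 5 of 8 neuron and oligodendrocyte markers were listed at 0 throughout. Summed neuron and oligodendrocyte markers, nearly all Tubb3, were 388 to 461 TPM in LPS+Pilo, 312 to 407 TPM in LPS and 169 to 371 TPM in Control. The part of these marker sums in the results below was not tested. The astrocyte sums were 47.7 to 54.9 TPM in LPS+Pilo, 46.7 to 56.3 TPM in LPS and 46.5 to 59.3 TPM in Control, and the erythroid sums were 0.85 to 3.0 TPM in LPS+Pilo, 0.96 to 1.43 TPM in LPS and 0.8 to 1.15 TPM in Control. In bulk samples, fewer cells of a type and less RNA per cell cannot be told apart.

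Transcripts for siderophore capture, the ferritin heavy chain, the transferrin receptor and both divalent metal transporters were higher in cells given LPS. Of the 10 genes, 6 were higher in LPS than in Control, 0 were lower and 4 did not pass at an adjusted p under 0.05 (limma, Benjamini-Hochberg over all 11260 genes tested); among all genes tested, 4.12% were called higher and 3.64% lower. The 6 were Lcn2, Tfrc, Fth1, Slc11a1, Slc11a2 and Hmox1, and the 4 were Ftl1, Slc40a1, Ireb2 and Aco1. All libraries of LPS lay above all of Control for the 6 genes called and below for 2 (Ftl1, Slc40a1), where 11.2% of all genes were separated upward and 13.1% downward. The median log2 fold change was 0.56 over the 10 genes and 0.07 over all genes tested. All 10 passed the filter on low values, Lcn2 through its level in the LPS and LPS+Pilo libraries. In LPS+Pilo against Control, 5 of the 10 were higher, against 4.85% of all genes, and 1 (Slc40a1) was lower, against 5.30%. Their libraries were separated upward for 5 and downward for 2 of the 10, against 14.9% and 15.6% of all genes. In LPS+Pilo against LPS, limma called 0 of the 10, against 0.0444% of all genes, and 1 of the 10 (Hmox1) had an unadjusted p under 0.05, against 6.76% of all genes. Ftl1 and Hmox1 were separated downward, which 6.63% of all genes were. The 3 comparisons share libraries (LPS in a pair of them, Control in another, LPS+Pilo in the third), so their values are given side by side and no likeness between them is drawn.

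**Figure D1:**
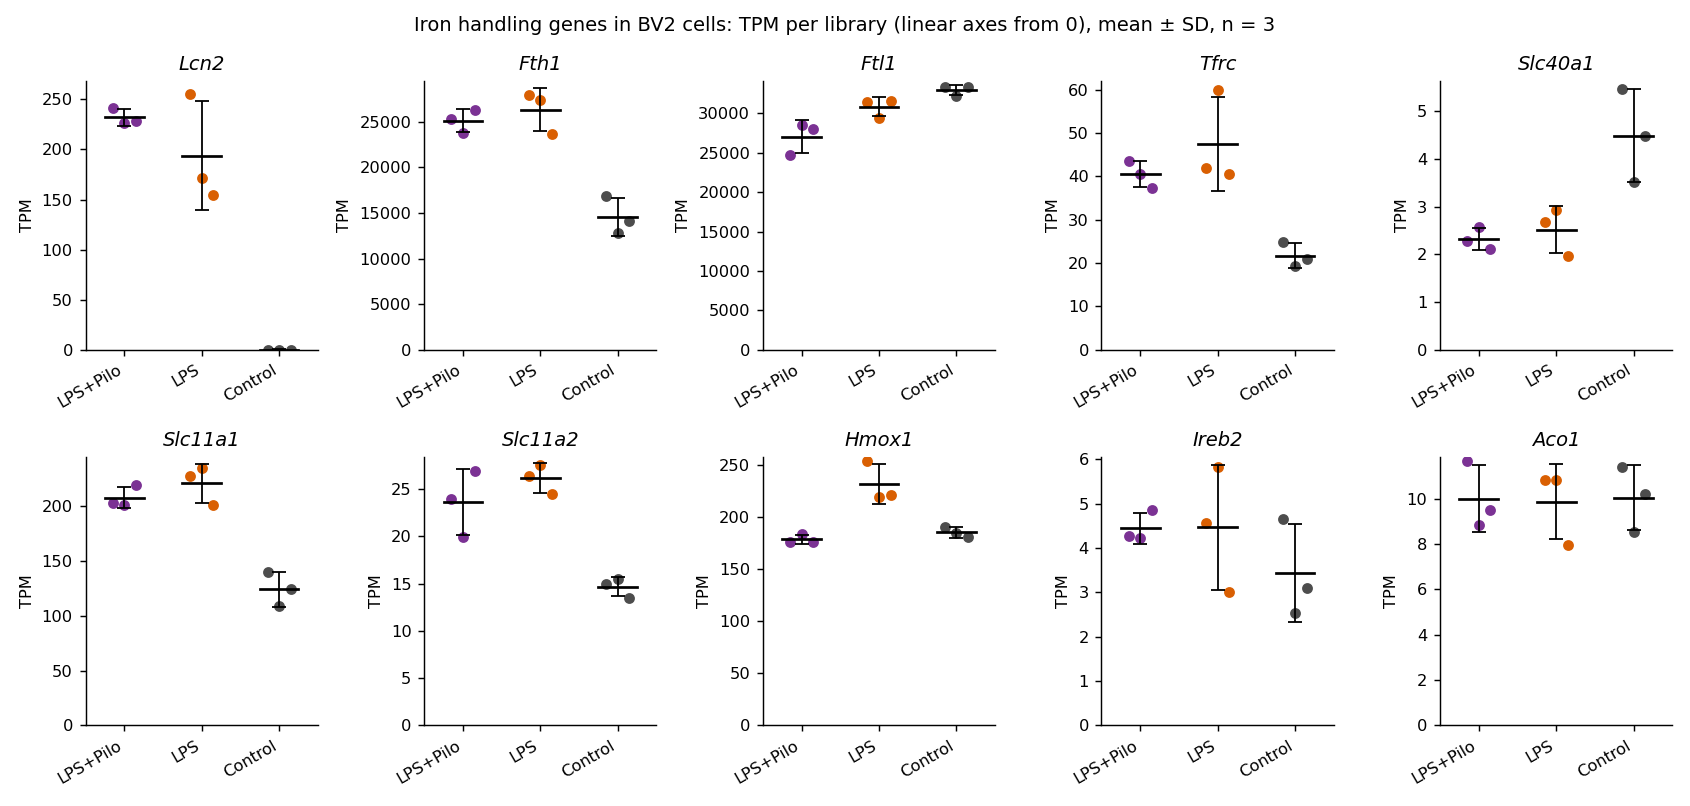
TPM of the 10 iron handling genes (y axes, linear and starting at 0, a separate scale for each gene) in LPS+Pilo, LPS and Control; points are libraries in replicate order, thick lines are means and bars are SD (n = 3). Lcn2 lay between 154 and 256 TPM in the LPS+Pilo and LPS libraries and below 1 TPM in Control, whereas Aco1 overlapped across all groups.

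Lcn2 encodes lipocalin 2, the siderophore-binding protein. Its level was 242, 226 and 228 TPM in the LPS+Pilo libraries, 256, 172 and 154 TPM in LPS and 0.21, 0.15 and 0.22 TPM in Control. Every LPS and LPS+Pilo library stood far above every Control library, and the LPS range enclosed the LPS+Pilo values. In order of level within a library, Lcn2 held places 630 to 944 in the LPS+Pilo and LPS libraries and 12840 to 13394 in Control.

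The log2 fold change of Lcn2 in LPS against Control was 7.32 ± 0.16 (SE, n = 3 each; limma adjusted p = 2.47e-08), and it ranked 1 of 11260 by p-value. The ratio of the mean TPM, 194 ± 54.1 in LPS and 0.193 ± 0.0379 in Control (SD, n = 3), was 1003. That ratio rests on a Control level far below 1 TPM, while the log2 value carries a pseudocount of 1 TPM and understates the change. Over the alternatives tried, the log2 value of Lcn2 in LPS against Control ran from 7.10 to 9.34. Against Control, the log2 fold change in LPS+Pilo was 7.61 ± 0.16 (limma adjusted p = 1.70e-08). LPS+Pilo averaged 232 ± 8.40 TPM, and its log2 difference from LPS, 0.29 with a 95% interval of -0.07 to 0.66, did not pass (limma adjusted p = 0.793).

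Neutrophils are the classic carriers of lipocalin 2. The 9 neutrophil markers together reached 0.52 to 1.04 TPM in LPS+Pilo, 0.87 to 1.27 TPM in LPS and 0.13 to 0.54 TPM in Control, and S100a9, Ngp, Mpo and Ly6g were listed at 0 in all 9 libraries. The genes whose profile over the 9 libraries lay closest to that of Lcn2 were Csf3, the granulocyte growth factor G-CSF (root mean square distance 0.68 on log2(TPM + 1), each gene centred on its mean), Saa3, an acute phase serum amyloid (1.17), Ccl7, a monocyte chemokine (1.21), Tnf, the tumour necrosis factor (1.75), and Acod1, which makes itaconate (1.81). The spread of Lcn2 itself around its mean was 3.53 on the same scale. Genes were centred and not scaled, so the distance mostly reflects the size of the rise over Control. Csf3 was at 0 in every Control library and passed the filter through the others. Mean TPM in LPS+Pilo and LPS was 77.3 and 59.55 for Csf3 and 270 and 202 for Saa3, higher in LPS+Pilo like Lcn2. It was 84.96 and 149 for Ccl7, 166 and 190 for Tnf and 234 and 339 for Acod1, lower in LPS+Pilo. None of these differences passed in limma. Of the partners of Lcn2, its receptor gene Slc22a17 was at or below 0.24 TPM and Ltf, which encodes the iron-binding lactoferrin, at or below 0.09 TPM in every library, and neither was tested. Bdh2, whose enzyme makes a mammalian siderophore, had 1.18, 1.12 and 1.72 TPM in LPS+Pilo, 0.74, 0.85 and 0.84 TPM in LPS and 1.34, 1.19 and 0.94 TPM in Control. Its differences passed in no comparison (limma adjusted p = 0.377 for LPS against Control and 0.707 for LPS+Pilo against LPS). Hamp, the gene of hepcidin, the hormone that degrades ferroportin, was listed at 0 in all 9 libraries.

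The ferritin genes were among the most abundant transcripts of these cells. Ftl1, the light chain, was the gene at place 1 or 2 by level in each library, and Fth1, the heavy chain that oxidizes iron for storage, held places 1 to 3. Fth1 had 25345, 23805 and 26251 TPM in LPS+Pilo, 27938, 27431 and 23691 TPM in LPS and 16856, 12797 and 14115 TPM in Control. No LPS or LPS+Pilo library overlapped Control, and the LPS and LPS+Pilo libraries overlapped each other. Fth1 was higher in LPS than in Control (log2 fold change 0.86 ± 0.13, limma adjusted p = 0.00309, ratio of means 1.81) and higher in LPS+Pilo than in Control (0.79 ± 0.13, limma adjusted p = 0.00400). Its LPS+Pilo to LPS difference was -0.07 with a 95% interval of -0.35 to 0.22 (limma adjusted p = 0.957).

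Ftl1 had 24671, 28509 and 27998 TPM in LPS+Pilo, 31498, 29448 and 31541 TPM in LPS and 33385, 32228 and 33374 TPM in Control. The 3 groups did not overlap, with LPS+Pilo lowest and Control highest, but no difference passed. The log2 fold change was -0.10 ± 0.10 in LPS against Control (limma adjusted p = 0.593), -0.19 ± 0.10 in LPS+Pilo against LPS (0.771) and -0.29 ± 0.10 in LPS+Pilo against Control (0.107).

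The ratio of heavy to light chain within a library is not altered by a single scaling factor per library, but quantile normalization does alter it. Fth1 over Ftl1 was 1.03, 0.835 and 0.938 in LPS+Pilo, 0.887, 0.932 and 0.751 in LPS and 0.505, 0.397 and 0.423 in Control. All LPS and LPS+Pilo ratios exceeded all Control ratios. The log2 ratio differed by 0.96 between LPS and Control and by 1.08 between LPS+Pilo and Control (two-sided exact permutation p = 0.1 each, the smallest that 3 against 3 libraries can give). Between LPS+Pilo and LPS it differed by 0.12 (exact permutation p = 0.4). Fth1 and Ftl1 together took 5.00, 5.23 and 5.42% of all TPM in LPS+Pilo, 5.94, 5.69 and 5.52% in LPS and 5.02, 4.50 and 4.75% in Control. The LPS share lay above both other groups in every library. The mean share was 0.96 percentage points higher in LPS than in Control (exact permutation p = 0.1), 0.50 points lower in LPS+Pilo than in LPS (difference -0.50, exact permutation p = 0.1) and 0.46 points higher in LPS+Pilo than in Control (exact permutation p = 0.2).

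Under quantile normalization, which gives equal values to genes of equal rank by construction, the log2 fold change in LPS against Control was 0 for Ftl1 and 0.23 for Fth1 (limma adjusted p = 0.498 for Fth1), so the ratio moved far less than the 0.96 above. The Fth1 value was 0.41 in LPS+Pilo against Control (limma adjusted p = 0.222), and without the filter on low values the limma adjusted p in LPS+Pilo against Control was 0.0529. Reads of ferritin genes can also be shared with processed copies. The copies Ftl1-ps1, at 22.7 to 39.8 TPM, and Ftl2-ps, at 3.42 to 12.5 TPM, were small beside Ftl1, and neither passed in LPS against Control (limma adjusted p = 0.482 and 0.949). Ncoa4, the receptor that delivers ferritin to lysosomes for breakdown, averaged 11.9 ± 1.64 TPM in LPS+Pilo, 15.6 ± 1.66 TPM in LPS and 24.9 ± 5.89 TPM in Control (SD, n = 3), without overlap between any groups. It was lower in LPS+Pilo than in Control (log2 fold change -0.99 ± 0.17, limma adjusted p = 0.00621), and its differences of -0.62 in LPS against Control (0.0589) and -0.37 in LPS+Pilo against LPS (0.753) did not pass.

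**Figure D2:**
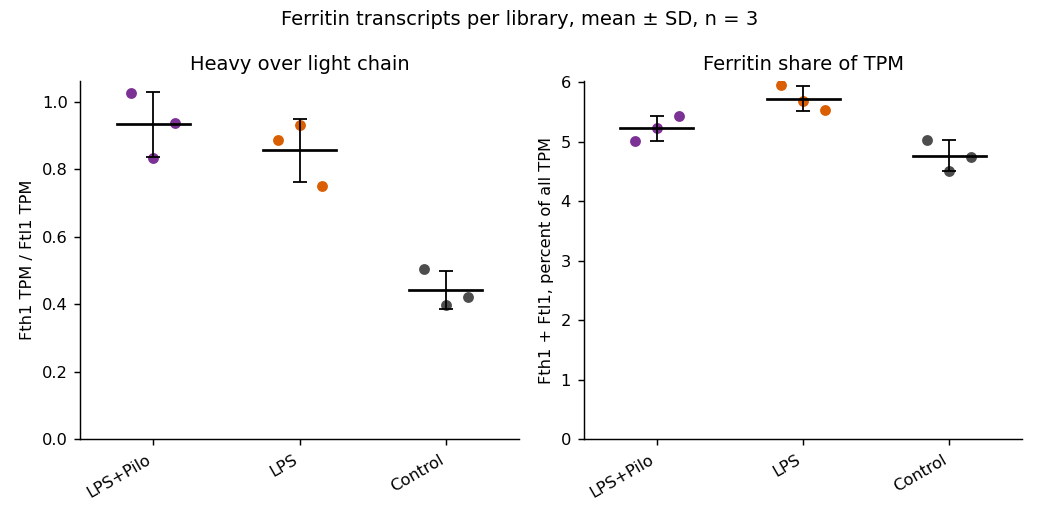
Left, the ratio of Fth1 to Ftl1 TPM per library; right, Fth1 plus Ftl1 as percent of all TPM per library; both axes start at 0, points are libraries, thick lines means and bars SD (n = 3). The ratio was 0.751 to 1.03 in LPS+Pilo and LPS and 0.397 to 0.505 in Control, and the share was highest in LPS.

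Tfrc encodes the transferrin receptor. It had 43.5, 40.7 and 37.4 TPM in LPS+Pilo, 42.05, 60.0 and 40.55 TPM in LPS and 24.9, 19.3 and 21.0 TPM in Control. Control libraries lay below all others, and a single LPS library, replicate 2, stood above the remaining LPS and LPS+Pilo libraries. Tfrc was higher in LPS than in Control by 1.08 ± 0.16 on the log2 scale (limma adjusted p = 0.00315, ratio of means 2.19) and in LPS+Pilo than in Control by 0.87 ± 0.16 (limma adjusted p = 0.00761, ratio 1.86). LPS+Pilo and LPS differed by -0.21 with a 95% interval of -0.56 to 0.15 (limma adjusted p = 0.859). Tfrc and Fth1, which carry the element on opposite ends of their transcripts, were both higher in LPS. Ftl1 and Slc40a1, which carry it on the same end as Fth1, were not. Their log2 fold changes in LPS against Control were -0.10 (limma adjusted p = 0.593) and -0.63 (0.0622). Any part of the element in these RNA levels was not tested.

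Slc11a1, also called Nramp1, moves divalent metals out of the phagosome of macrophages. It had 203, 202 and 219 TPM in LPS+Pilo, 228, 235 and 201 TPM in LPS and 140.3, 109 and 124 TPM in Control. The LPS and LPS+Pilo libraries did not overlap Control. Its log2 fold change was 0.83 ± 0.11 in LPS against Control (limma adjusted p = 0.00144), 0.74 ± 0.11 in LPS+Pilo against Control (0.00228) and -0.08, with a 95% interval of -0.32 to 0.15, in LPS+Pilo against LPS (0.918).

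Slc11a2, also called DMT1, carries iron across the endosomal and plasma membranes. It had 23.96, 19.9 and 26.9 TPM in LPS+Pilo, 26.35, 27.6 and 24.5 TPM in LPS and 14.96, 15.45 and 13.5 TPM in Control. Control was again the low group without overlap, at about an order of magnitude below Slc11a1. Slc11a2 was higher by 0.80 ± 0.12 in LPS than in Control (limma adjusted p = 0.00458) and by 0.64 ± 0.12 in LPS+Pilo than in Control (0.0104, and 0.0524 without Control replicate 3). Its LPS+Pilo to LPS difference was -0.15 with a 95% interval of -0.43 to 0.13 (limma adjusted p = 0.877).

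Slc40a1 encodes ferroportin, the known exporter of iron from mammalian cells. It had 2.29, 2.57 and 2.11 TPM in LPS+Pilo, 2.68, 2.92 and 1.96 TPM in LPS and 5.46, 3.51 and 4.48 TPM in Control. All LPS+Pilo and LPS libraries lay below all Control libraries. It was lower in LPS+Pilo than in Control (log2 fold change -0.71 ± 0.18, limma adjusted p = 0.0335, ratio of means 0.518). In LPS against Control the value was -0.63 ± 0.18 and did not pass (limma adjusted p = 0.0622, ratio of means 0.562). LPS+Pilo and LPS differed by -0.08 with a 95% interval of -0.47 to 0.32 (limma adjusted p = 0.972).

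Neither side of the threshold was firm for Slc40a1. For LPS+Pilo against Control its limma adjusted p was 0.1, 0.0770 and 0.119 without LPS+Pilo replicate 1, 2 and 3, 0.0506 without LPS replicate 1, 0.0838 without Control replicate 1, 0.107 without Control replicate 3 and 0.0822 without the filter on low values. In LPS against Control it was 0.00256 under quantile normalization, 0.00796 under median-ratio size factors, 0.0469 without the trend on expression and just under 0.05 without Control replicate 2. Of the copper oxidases that load exported iron onto transferrin, Cp was at 0.61, 0.67 and 0.78 TPM in LPS+Pilo, 0.72, 0.46 and 0.15 TPM in LPS and 0.12, 0 and 0.09 TPM in Control, too low to be tested, and Heph was listed at 0 in all 9 libraries.

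Hmox1 encodes heme oxygenase 1, the inducible enzyme that opens the heme ring and frees its iron. It had 176, 184 and 176 TPM in LPS+Pilo, 253, 219 and 221 TPM in LPS and 190.5, 184 and 180.5 TPM in Control. The LPS libraries were above every other library, and the LPS+Pilo and Control libraries overlapped. Hmox1 was higher in LPS than in Control by 0.32 ± 0.08 on the log2 scale (limma adjusted p = 0.0385). Against LPS, LPS+Pilo showed a log2 difference of -0.37 ± 0.08, with a 95% interval of -0.55 to -0.19 and lower levels in 3 of 3 libraries, but it did not pass correction over all genes (limma adjusted p = 0.318, place 34 of 11260). LPS+Pilo and Control differed by -0.05 (limma adjusted p = 0.746).

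The Hmox1 call in LPS against Control depended on single libraries and settings. Its limma adjusted p was 0.0598, 0.0597 and 0.0657 without LPS+Pilo replicate 1, 2 and 3, 0.109 and 0.0785 without LPS replicate 1 and 2, 0.111 and 0.153 without Control replicate 2 and 3, 0.158 under median-ratio size factors, 0.0924 without the trend and 0.1 with the LPS and Control libraries fitted alone. The limma adjusted p of Hmox1 in LPS+Pilo against LPS ranged from 0.146 to 0.916 over the alternatives. Its constitutive relative Hmox2 and the heme-sensing repressor Bach1 had log2 fold changes of 0.01 each in LPS against Control (limma adjusted p = 0.956 and 0.981), and Nfe2l2, the gene of the activator NRF2, had -0.00 (0.998).

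No difference passed for the sensors. Ireb2, iron regulatory protein 2, had 4.27, 4.22 and 4.85 TPM in LPS+Pilo, 4.57, 5.83 and 3.0 TPM in LPS and 4.66, 2.53 and 3.11 TPM in Control. Aco1, the cytosolic aconitase that becomes iron regulatory protein 1 when its iron-sulfur cluster is lost, had 11.7, 8.84 and 9.5 TPM in LPS+Pilo, 10.83, 10.82 and 7.98 TPM in LPS and 11.4, 8.53 and 10.2 TPM in Control. For both genes the groups overlapped in every comparison. In LPS against Control the log2 fold change was 0.30 ± 0.23 for Ireb2 (limma adjusted p = 0.477) and -0.03 ± 0.17 for Aco1 (0.948). Between LPS+Pilo and LPS it was 0.03 for Ireb2 (95% interval -0.49 to 0.54) and 0.02 for Aco1 (95% interval -0.35 to 0.39), intervals wide enough that smaller differences could not be seen. Fbxl5, whose protein marks iron regulatory protein 2 for degradation, had a log2 fold change of 0.54 in LPS against Control (limma adjusted p = 0.101) and -0.29 in LPS+Pilo against LPS (0.821).

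**Figure D3:**
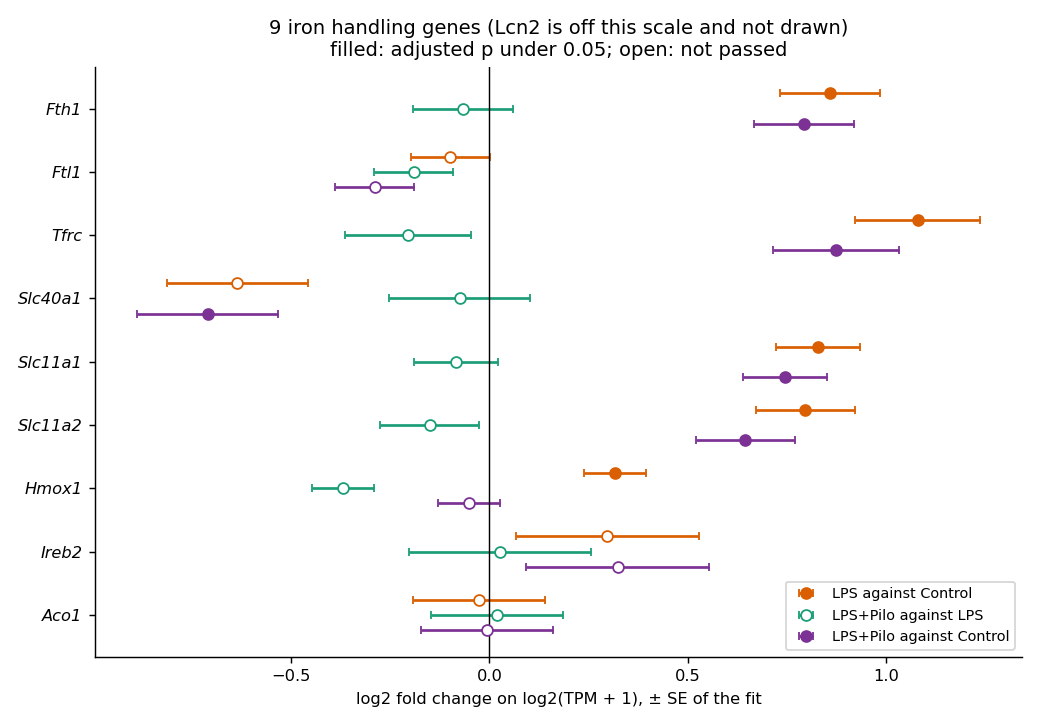
Log2 fold change on log2(TPM + 1) (x axis, bars ± SE of the fit) for 9 of the 10 genes in 3 comparisons; filled points passed an adjusted p under 0.05 and open points did not. Lcn2, at 7.32 in LPS against Control, lies off the scale; Fth1, Tfrc, Slc11a1 and Slc11a2 lie between 0.64 and 1.08 in both comparisons with Control, and all open points of LPS+Pilo against LPS lie between -0.37 and 0.03.

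By level, the ferritins led in every group. In LPS the means of Lcn2 (194 ± 54.1 TPM), Slc11a1 (221 ± 17.8 TPM) and Hmox1 (231 ± 19.3 TPM) lay within their spread of each other. In Control, Lcn2 (0.193 TPM) was last and Slc40a1 (4.48 ± 0.98 TPM) stood beside Ireb2 (3.43 ± 1.10 TPM) within their spread.

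The other genes of iron metabolism were read from lists of storage, uptake, export, heme, sensing and iron-sulfur genes. Of 70 listed genes with a single identifier, 55 were tested. In LPS against Control, 5 of the 55 were higher and 2 lower, and 48 did not pass (limma, adjusted p under 0.05); among all genes 7.76% were called in either direction. The median log2 fold change was -0.02 over the 55 and 0.07 over all genes. Under quantile normalization 6 of the 55 were higher and 6 lower, beside 614 higher and 902 lower of all genes, against 464 and 410 without it. Median-ratio size factors gave 7 higher and 6 lower, beside 629 higher and 668 lower of all genes. Between LPS+Pilo and LPS limma called 0 of the 55, against 0.0444% of all genes. An unadjusted p under 0.05 was found for 5 of the 55, against 6.76% of all genes. In LPS+Pilo against Control 6 were higher, 5 lower and 44 did not pass, and 10.2% of all genes were called.

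In LPS against Control, 2 of 8 tested genes of heme breakdown and uptake (Hp and Blvrb, list median log2 fold change 0.01) and 1 of 8 of heme synthesis (Alas1, list median -0.06) were higher, and 0 of either list were lower. Among all genes tested, 4.12% were called higher and 3.64% lower. Hp, the gene of the hemoglobin-binding haptoglobin, averaged 23.5 ± 1.36 TPM in LPS+Pilo, 36.3 ± 2.91 TPM in LPS and 11.9 ± 2.18 TPM in Control (SD, n = 3), with no overlap between any groups. It was higher in LPS than in Control (log2 fold change 1.54 ± 0.14, limma adjusted p = 1.37e-04) and in LPS+Pilo than in Control (0.93, limma adjusted p = 0.00264). Its difference of -0.61 in LPS+Pilo against LPS did not pass (limma adjusted p = 0.321). Alas1, the rate-limiting enzyme of heme synthesis in most cells, averaged 236 ± 6.2 TPM in LPS+Pilo, 259 ± 45.8 TPM in LPS and 112 ± 13.7 TPM in Control and was higher in LPS than in Control (1.20 ± 0.13, limma adjusted p = 5.03e-04) and in LPS+Pilo than in Control (1.08, 7.85e-04). Blvrb, a biliverdin reductase downstream of heme oxygenase, averaged 57.0 ± 5.18 TPM in LPS+Pilo, 62.4 ± 5.64 TPM in LPS and 32.5 ± 1.30 TPM in Control, with log2 fold changes of 0.92 ± 0.10 in LPS against Control (limma adjusted p = 5.83e-04) and 0.79 in LPS+Pilo against Control (0.00123).

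Smaller changes in LPS against Control were an increase of Slc39a14, a metal importer also called ZIP14 (0.65 ± 0.17, limma adjusted p = 0.0483), and of Lyrm4, part of the mitochondrial iron-sulfur assembly complex (0.55 ± 0.11, 0.0161), and a decrease of Fdxr, the ferredoxin reductase (-0.41 ± 0.09, 0.0191), and of the mitochondrial transporter gene Abcb8 (-0.42 ± 0.08, 0.0159). The limma adjusted p of Slc39a14 was 0.0775 to 0.185 when LPS+Pilo replicate 1, 2 or 3, LPS replicate 1 or 2, or Control replicate 2 or 3 was left out. For Lyrm4 it was 0.0546 to 0.0727 without LPS replicate 1 or 2 or Control replicate 3, for Fdxr 0.0512 to 0.107 without LPS replicate 1 or 2 or Control replicate 2 or 3, and for Abcb8 0.0526 and 0.0849 without LPS replicate 1 and Control replicate 3. With the LPS and Control libraries fitted alone, none of these 4 passed (0.0568 to 0.137), and Slc39a14 did not pass without the filter (0.0934) or the trend (0.0522), nor Lyrm4 under quantile normalization (0.056).

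Genes called in LPS+Pilo against Control and not in LPS against Control included Ncoa4, given above, Trf, Lrp1 and Slc25a37. Such a call is not a test of LPS+Pilo against LPS, where 0 of the 55 other iron genes passed. Trf, the gene of transferrin, averaged 125 ± 2.77 TPM in LPS+Pilo, 88.3 ± 15.9 TPM in LPS and 71.6 ± 8.94 TPM in Control (SD, n = 3), with every LPS+Pilo library above every other library. Its log2 fold change was 0.80 in LPS+Pilo against Control (limma adjusted p = 0.00659) and 0.51 ± 0.14 in LPS+Pilo against LPS, where it did not pass (limma adjusted p = 0.484). Lrp1, which takes up heme bound to hemopexin, was lower in LPS+Pilo than in Control (-0.75, limma adjusted p = 0.0241), and Slc25a37, the mitochondrial iron importer mitoferrin 1, was higher (0.67, 0.0341). In LPS against Control the log2 fold change was -0.36 for Lrp1 (limma adjusted p = 0.259) and 0.56 for Slc25a37 (0.0789). LPS+Pilo and LPS differed by -0.39 for Lrp1 (limma adjusted p = 0.745) and 0.11 for Slc25a37 (0.933). For LPS+Pilo against Control, the limma adjusted p of Lrp1 was 0.0598 to 0.0833 without LPS+Pilo replicate 1, 2 or 3 or Control replicate 1 or 3. That of Slc25a37 was 0.0928 to 0.120 without LPS+Pilo replicate 1, 2 or 3 or Control replicate 2 or 3. Without the filter on low values neither passed (0.0673 for Lrp1, 0.0749 for Slc25a37), nor did Slc25a37 under a filter of 5 TPM (0.0519). Lyrm4 (0.51, limma adjusted p = 0.0184), Fdxr (-0.41, 0.0154) and Abcb8 (-0.38, 0.0191) were called here too. Their limma adjusted p was 0.0652 to 0.0805 for Lyrm4 without LPS+Pilo replicate 1 or 3 or Control replicate 3, 0.0518 to 0.087 for Fdxr without LPS+Pilo replicate 1, 2 or 3 or Control replicate 3, and 0.0664 to 0.0898 for Abcb8 without LPS+Pilo replicate 2 or 3 or Control replicate 3. Steap3, the endosomal ferrireductase gene, was named after its values were seen because it was the remaining called gene (-0.33, limma adjusted p = 0.0370). Leaving out any library other than LPS replicate 3 gave it an adjusted p of 0.0537 to 0.122 in limma, and fitting the LPS+Pilo and Control libraries alone gave 0.0635. Steap3 had -0.21 in LPS against Control (limma adjusted p = 0.183) and -0.12 in LPS+Pilo against LPS (0.841).

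**Figure D4:**
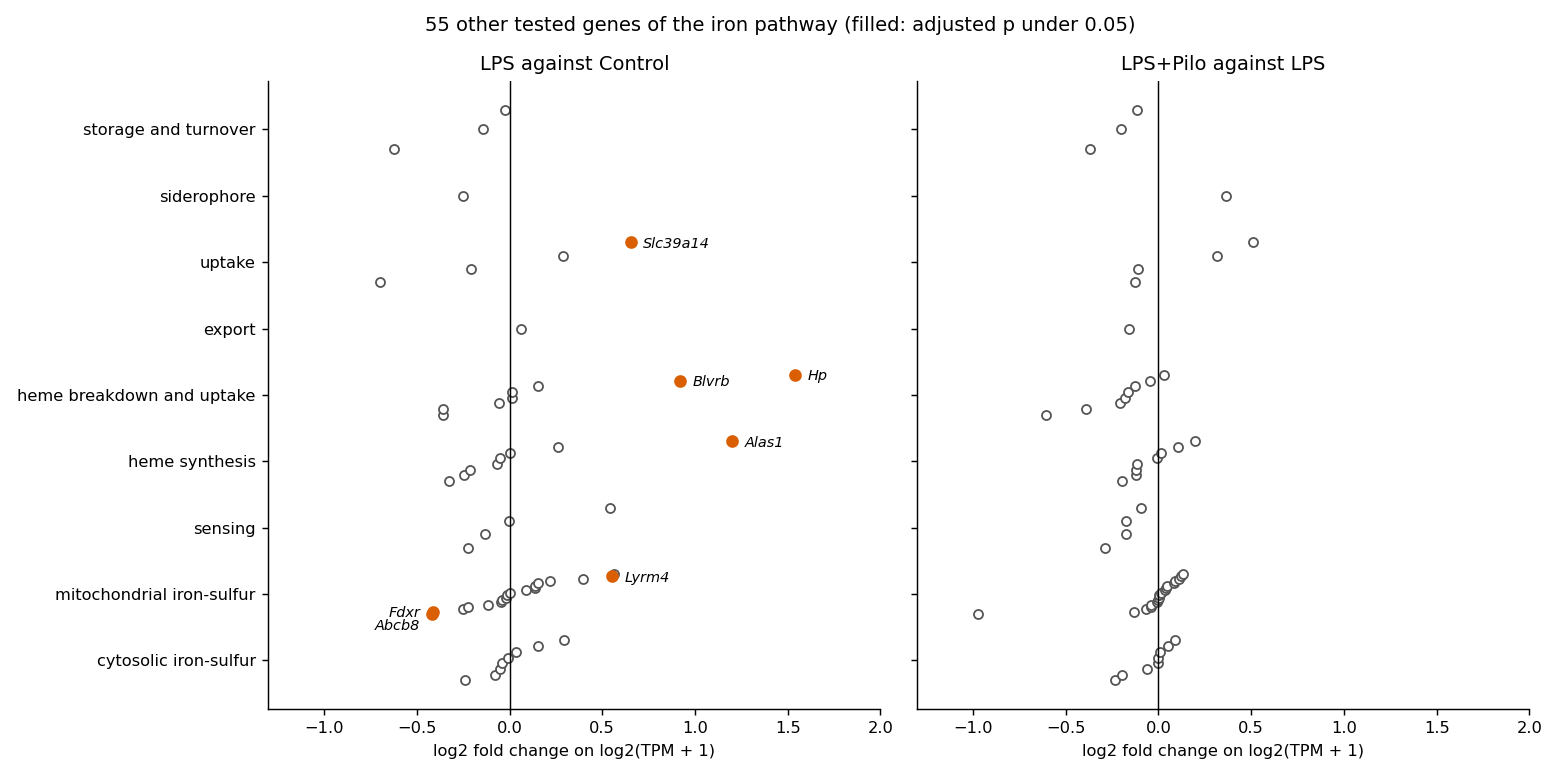
Log2 fold change on log2(TPM + 1) (x axis) of the 55 other tested iron genes, a point per gene, grouped by role (y axis), in LPS against Control (left) and LPS+Pilo against LPS (right); filled, labelled points passed an adjusted p under 0.05. In LPS against Control 7 points are filled, with Hp at 1.54 and Alas1 at 1.20 farthest right, and in LPS+Pilo against LPS 0 are filled.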

How the data were processed

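RNA was sequenced from 9 BV2 libraries, 3 per group, with TRIzol extraction and the Illumina TruSeq RNA kit per the labels' protocols. The authors deposited 1 table of TPM for 55906 genes, each column summing to 1000000 within rounding. The submitters' processing notes name STAR 2.7.1a, fastp 0.19.5, DESeq2 1.24.0 and the mouse build GRCm39. The sources used here do not give the program that made TPM, the annotation, the strand setting or how reads with several matches were handled, so overlapping genes and near copies may share reads. TPM are shares, so abundant genes lower the rest, and the values do not give the depth.

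Symbols came from GENCODE M21 (GRCm38) by Ensembl identifier for 52081 genes; Ndor1 matched several identifiers and was left out. Genes reaching 1 TPM in 3 or more libraries were fitted on log2(TPM + 1) in limma 3.58.1 (R 4.3.3), with a trend on expression, all 9 libraries, 1 mean per group and 6 residual degrees of freedom. Tests were two-sided, with Benjamini-Hochberg adjustment over 11260 genes and 0.05 as threshold. The fit was also run on simulated data with the spread of these libraries, which checks the code and not the calls given here. Ferritin ratios and shares were compared by exact permutation in scipy 1.17.1.

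The members and lists were chosen with earlier results of these data known. Named were the 10 genes, listed iron genes called in LPS against Control or LPS+Pilo against LPS, the 4 largest changes of those called only in LPS+Pilo against Control, 12 listed genes always, expressed ferritin copies and the 5 profiles nearest Lcn2. Alternatives changed scaling, pseudocount, filter, trend, block, samples fitted and single libraries. Sequence coordinates are of GRCm38, not of the submitters' build.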

Additional observations from a re-analysis of the deposited data

How the results depend on the processing

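Under all alternatives tried, Lcn2, Tfrc and Slc11a1 kept their direction and call in both comparisons with Control, and Slc11a2 in LPS against Control; call changes of the other genes are given above. LPS against Control called 874 genes, 1516 under quantile normalization, 483 with those 2 groups fitted alone and 414 to 1020 without single libraries (507 and 466 without LPS replicate 1 and 2, 552 without Control replicate 2 and 414 without Control replicate 3). For the other iron genes (7) the counts were 12 under quantile normalization, 13 under median-ratio size factors, 3 with the 2 groups alone and 3 to 9 without single libraries, and for the 10 genes described here (6) they were 5 to 6. The genes behind that count were not always the same. Under quantile normalization, median-ratio size factors, no trend or without Control replicate 2, 5 were higher and 1 (Slc40a1) lower, against 6 higher and 0 lower in the main fit. LPS+Pilo against LPS called 5 genes, 1 under quantile normalization, 2 under median-ratio size factors, 1 without the filter, 3 without the trend and 0 to 6 without single libraries, with 0 of the 10 and 0 other iron genes throughout. LPS+Pilo against Control called 1143 genes, 1726 under quantile normalization and 642 to 1286 without single libraries (735, 663 and 692 without LPS+Pilo replicate 1, 2 and 3, and 642 without Control replicate 3), with 5 to 12 other iron genes (11) and 4 to 6 of the 10 (6). Signs turned only for values that had not passed. Leaving out single libraries, the log2 fold change of Aco1 in LPS against Control ran from -0.13 to 0.11, and those in LPS+Pilo against LPS ran from -0.11 to 0.10 for Aco1, -0.18 to 0.20 for Ireb2 and -0.19 to 0.0077 for Slc40a1. Aco1 in LPS+Pilo against Control ran from -0.11 to 0.082 and was 0.0010 on shares without ferritin genes. Fth1 in LPS+Pilo against LPS was 0.17 under quantile normalization. The cause was not tested. Ireb2 and Slc40a1 were not tested under a filter of 5 TPM, and no scaling moved the median of all genes by 0.1.

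The labels do not say whether a replicate number is shared between groups, so pairing is unknown. Same-numbered libraries of different groups correlated at -0.225 to 0.165 in their deviations, above 0.1 in 2 of 9 pairs. In 7 of 18 cases the best match carried the same number. With 3 libraries per group the deviations within a group depend on each other, so these values cannot decide on pairing. With the replicate block, 808 genes were called in LPS against Control (5 of the 10 and 9 other iron genes), 1 in LPS+Pilo against LPS and 1064 in LPS+Pilo against Control (5 of the 10 and 10 other iron genes). The limma adjusted p was then 0.0522 for Hmox1 in LPS against Control, and 0.0535 for Slc40a1 and 0.0629 for Steap3 in LPS+Pilo against Control.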
